A study of Rattus norvegicus with 90 samples.

Results

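The response of the rat heart 8 h after a high dose of thioacetamide was described from 10 of the 90 libraries of the study. The libraries were chosen by their labels alone, as heart, 8 h, and either the high dose (5 libraries) or vehicle (5 libraries), and the features were the 40071 targets with rat Ensembl transcript identifiers. Poly-A RNA of liver, kidney, and heart had been sequenced 8 or 24 h after rats were given thioacetamide or vehicle, with 5 libraries in each group. All rats were male Sprague-Dawley rats, bought at 10 weeks of age and later fitted, under anesthesia, with a catheter in the jugular vein. The high-dose rats received 100 mg/kg of thioacetamide as a single intraperitoneal injection, and the vehicle rats received 3 ml/kg of saline. Both groups were injected in the morning, had no food until the tissues were taken 8 h later, and gave RNA from powdered whole heart, so the values average over atria, ventricles, and all cell types of the organ. In such bulk RNA, a change in the number of cells of a type and a change in RNA per cell cannot be told apart. The low-dose hearts (25 mg/kg) share their vehicle libraries with this comparison and are given beside it.

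Thioacetamide is a sulfur-containing compound that does little damage itself. Cytochrome P450 and flavin-containing monooxygenase enzymes, most abundant in the liver, oxidize it to an S-oxide and then to a reactive S,S-dioxide that binds proteins and lipids, which makes it a standard agent for producing centrilobular liver injury in rats. The heart is not regarded as a main target and served in this study as an organ for comparison, so the question here was how much of its RNA profile differed at the early time.

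Gene names and sequences could not be tied to these identifiers from the tables used here. Transcripts are therefore given by identifier and length, without statements on what their products do, and the heart label was not checked with named marker genes. By likeness of profile, each of the 10 libraries had a Spearman correlation across transcripts of at least 0.899 with every other heart library and at most 0.825 with any liver or kidney library. Total estimated counts ranged from 16849390 to 30625999 in the vehicle libraries and from 23329225 to 25658552 in the high-dose libraries. One library in each group stood apart in the share of its counts on genomic intervals, the other kind of target listed: 20.3% in the vehicle library MS-89 and 21.7% in the high-dose library MS-77, against 5.66% to 10.7% in the other 8. Neither the totals (p = 0.849) nor the interval share (p = 0.571) separated the groups in 2-sided exact permutation tests of 5 against 5 libraries, for which the smallest possible p is 0.00794. Of 3 further measures added after the data were seen, the share of counts on a library's 10 most abundant transcripts was 27.9% ± 0.737 (SD, n = 5) after the high dose and 29.9% ± 1.77 (SD, n = 5) with vehicle (exact permutation p = 0.0476, Benjamini-Hochberg adjusted p = 0.238 over the 5 measures). The summed level of 20 transcripts abundant in the liver and nearly missing from the kidney was 40.6 to 73.4 TPM (an abundance scaled by transcript length and library) after the high dose and 35.1 to 76.8 TPM with vehicle, where untreated liver had at least 150000 TPM.

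At 8 h after the high dose, 3 heart transcripts were higher than with vehicle and none was lower by criteria of an adjusted p no higher than 0.01 together with a natural-log change that reached 0.60 either way (1.82-fold). They were ENSRNOT00000028066, 3.20-fold higher, ENSRNOT00000070912, 3.03-fold higher, and ENSRNOT00000003770, 1.90-fold higher. These were 0.0171% of the 17519 transcripts with enough counts to be tested by edgeR's quasi-likelihood test, and the other 22552 listed transcripts were not tested. Without a limit on the fold change, 5 transcripts passed the adjusted p. At an unadjusted p under 0.05, 1697 transcripts (9.69%) differed, of which 928 (5.30% of those tested) were higher and 769 (4.39%) were lower. Every high-dose library lay above every vehicle library for 202 transcripts (1.15%) and below every vehicle library for 195 (1.11%).

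Among the transcripts with enough counts to be tested, most had little room for a large change. The median absolute natural-log fold change was 0.0797 and the 95th percentile was 0.452. Of the tested transcripts, 14404 (82.2%) had a 95% interval of the fold change that lay wholly within 2-fold in either direction. Without the filter on low counts, this held for 14282 of 29232 (48.9%). Among the 14172 with a mean level of at least 2 CPM (a count divided by the TMM-scaled size of its library, so comparable between libraries but not between transcripts of unequal length), the share was 92.7%. An absolute natural-log fold change of 0.60 or more was reached by 472 transcripts (2.69%), of which 301 had a mean below 2 CPM. Low transcripts made up 63.8% of these, against 19.5% of all tested transcripts, so a large fitted change was mostly found where counts were few.

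**Figure D1:**
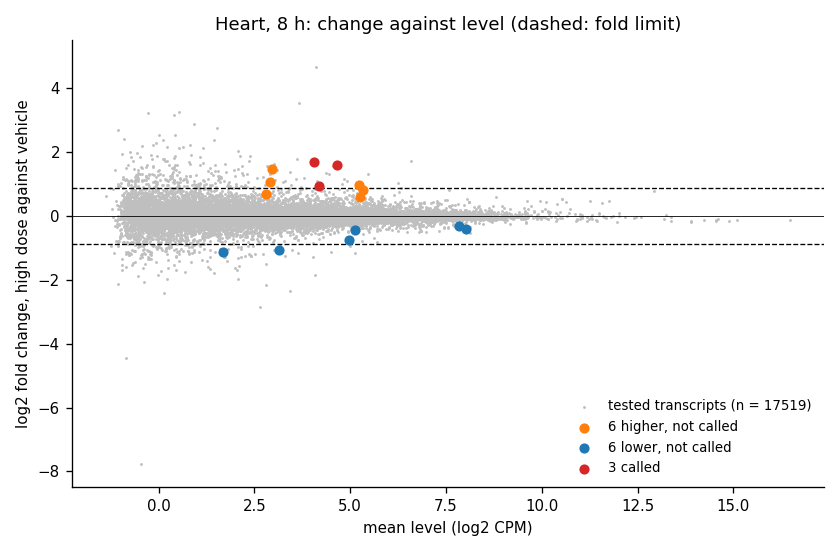
Log2 fold change of the high dose against vehicle in the heart at 8 h (vertical axis) against the mean level in log2 CPM (horizontal axis) for the 17519 tested transcripts (grey), with the dashed lines at the limit of 0.866 in either direction. The 3 called transcripts (red) lie above the upper line at middle levels. Of those named for their small p, the 6 higher (orange) lie on the same side of no change and the 6 lower (blue) on the other. The grey points beyond the lines gather at the left, where levels are low.

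ENSRNOT00000028066, of 2643 bases, was at 10.8, 7.33, 6.66, 8.56, and 6.61 CPM in the 5 vehicle hearts and at 21, 32.7, 26.1, 22.6, and 26.1 CPM in the 5 high-dose hearts. The groups did not overlap, and the lowest high-dose heart was far above the highest vehicle heart. The means were 7.99 ± 1.75 CPM (SD, n = 5) and 25.7 ± 4.49 CPM (SD, n = 5), which is a log2 fold change of 1.68 (SE 0.159, adjusted p = 0.00203, edgeR). At 25 mg/kg the 5 hearts had a mean of 10.7 ± 0.662 CPM (SD, n = 5), between the other groups, and the log2 fold change of 0.42 was not called.

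ENSRNOT00000070912, of 3617 bases, was at 14.5, 11.2, 12.7, 9.26, and 15.2 CPM with vehicle and at 47.7, 39.9, 32.7, 33.6, and 36.2 CPM after the high dose. Again every high-dose heart was above every vehicle heart. The means were 12.6 ± 2.44 CPM (SD, n = 5) and 38 ± 6.06 CPM (SD, n = 5), which is a log2 fold change of 1.60 (SE 0.145, adjusted p = 0.00194, edgeR). The low-dose mean was 19.8 ± 5.02 CPM (SD, n = 5), with 1 low-dose heart at 11.1 CPM, inside the vehicle range, and the others at 20.2 CPM or more.

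ENSRNOT00000003770, of 2995 bases, varied least among the vehicle hearts, at 12.2, 11.6, 14, 12.6, and 13 CPM. In the high-dose hearts it was at 22.9, 26.5, 23.9, 25.9, and 21.1 CPM, so that the groups did not overlap. The means were 12.7 ± 0.895 CPM (SD, n = 5) and 24.1 ± 2.22 CPM (SD, n = 5), which is a log2 fold change of 0.93 (SE 0.0819, adjusted p = 0.00194, edgeR). The low-dose mean of 14.1 ± 2.07 CPM (SD, n = 5) was nearer to vehicle, with a log2 fold change of 0.16. None of the 17703 transcripts tested was called in the heart at 8 h after the low dose.

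The calls depended on which libraries were used, while the fold changes moved little. ENSRNOT00000028066 missed the limit when MS-76, MS-88, MS-89, MS-74, or MS-87 was left out, with adjusted p from 0.0111 to 0.0126 (edgeR). ENSRNOT00000070912 missed it without MS-76 (adjusted p = 0.0111) and ENSRNOT00000003770 without MS-88 (adjusted p = 0.0117). Without both libraries rich in interval counts, MS-77 and MS-89, no transcript was called by edgeR (1386 at an unadjusted p under 0.05), although the log2 fold changes of ENSRNOT00000028066, ENSRNOT00000070912, and ENSRNOT00000003770 were 1.67, 1.71, and 0.91, close to those above, with adjusted p = 0.0326, 0.0256, and 0.0326. With the interval share as a covariate, the count stayed at 3. DESeq2 called 50 transcripts, 39 higher and 11 lower, among 29232 transcripts fitted, with these 3 among them.

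**Figure D2:**
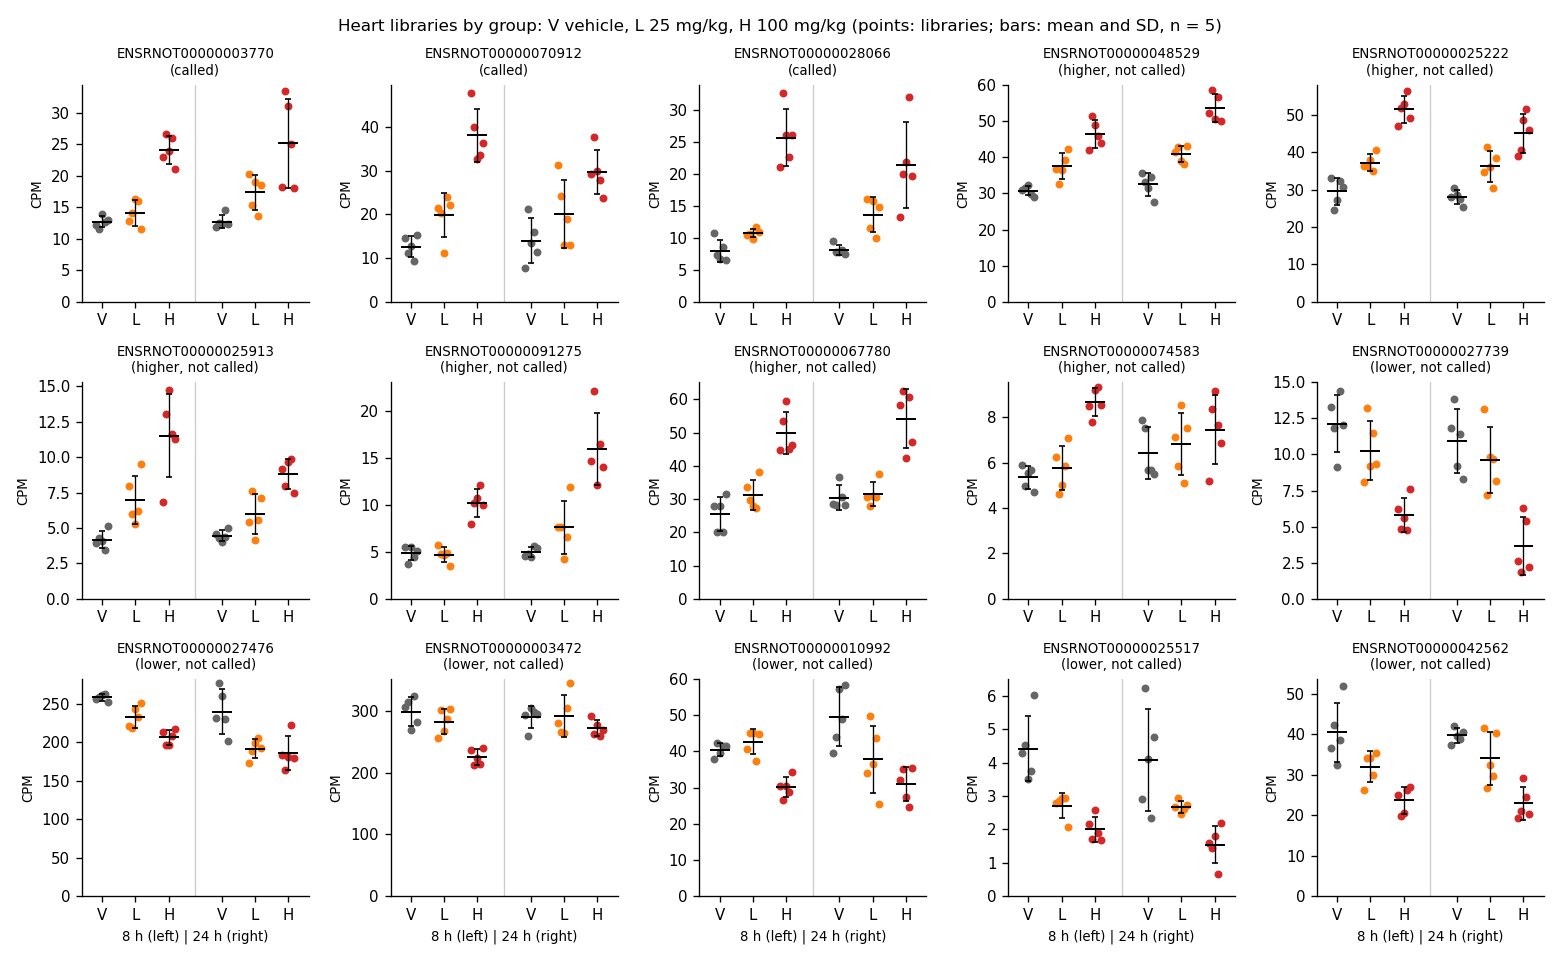
Level in CPM (vertical axes, from 0) of the 15 transcripts described in the text in each heart library, by dose group (V vehicle, L 25 mg/kg, H 100 mg/kg) at 8 h on the left of each panel and at 24 h on the right, with points for libraries and bars for the mean and SD of 5. At 8 h the high-dose points lie wholly above or wholly below the vehicle points in every panel, which the choice of these transcripts required for the 12 that were not called, and the low-dose means lie between the vehicle and high-dose means in most panels.

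The 6 higher transcripts with the next smallest p among those at 2 CPM or more without overlap of the groups had log2 fold changes from 0.60 to 1.47 and adjusted p from 0.00596 to 0.0328 (edgeR). ENSRNOT00000048529 and ENSRNOT00000025222 passed the adjusted p but not the limit on the fold change. ENSRNOT00000048529 was at 30.8 ± 1.25 CPM with vehicle and 46.5 ± 3.83 CPM after the high dose (SD, n = 5 each), a log2 fold change of 0.60 (SE 0.0646, adjusted p = 0.00596, edgeR). ENSRNOT00000025222 was at 29.6 ± 3.62 CPM and 51.5 ± 3.66 CPM (SD, n = 5 each), a log2 fold change of 0.80 (SE 0.0906, adjusted p = 0.00725, edgeR). The other 4 missed the adjusted p, and all of them but ENSRNOT00000074583 reached the fold limit. Of these, ENSRNOT00000025913 had the largest difference, at 3.96, 4.26, 4.08, 3.48, and 5.14 CPM with vehicle and at 6.85, 13.1, 14.8, 11.6, and 11.3 CPM after the high dose (log2 fold change 1.47, SE 0.190, adjusted p = 0.0194, edgeR). One high-dose heart, MS-68, was near the vehicle range for this transcript and the other 4 were well above it. ENSRNOT00000091275 had a log2 fold change of 1.07, ENSRNOT00000067780 of 0.97, and ENSRNOT00000074583 of 0.69.

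The 6 lower transcripts chosen in the same way had log2 fold changes from -1.13 to -0.32 and adjusted p from 0.0382 to 0.0632 (edgeR). ENSRNOT00000027739 was at 13.3, 11.8, 9.16, 14.4, and 12 CPM with vehicle and at 6.19, 4.84, 5.57, 4.79, and 7.59 CPM after the high dose, a log2 fold change of -1.06. ENSRNOT00000025517 had a log2 fold change of -1.13 and ENSRNOT00000042562 of -0.77. The remaining 3 were more abundant or less variable and differed less. ENSRNOT00000003472 was at 300 ± 23.5 CPM with vehicle and 226 ± 12.6 CPM after the high dose (SD, n = 5 each), and ENSRNOT00000027476 at 258 ± 4.08 CPM and 206 ± 9.58 CPM (SD, n = 5 each). ENSRNOT00000010992 had a log2 fold change of -0.43. None of these 12 is a call, and each was chosen for its difference in these libraries.

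One further transcript was chosen after its values were seen, because it was at 0 in a whole group. ENSRNOT00000083857, of 2244 bases, had 48, 28, 29, 26, and 10 estimated counts in the vehicle hearts (0.734 to 1.67 CPM) and 0 counts in all 5 high-dose hearts. The vehicle mean was 45.5-fold above a floor of 3 counts over the high-dose group. That floor allows for counting noise only, not for variation between hearts. The difference had an adjusted p of 0.0106 (edgeR), just short of the limit. The same transcript was at 0.344 to 3.01 CPM in the low-dose hearts at 8 h, and at 24 h it ranged from 0 to 2.21 CPM with vehicle and from 0 to 1.62 CPM after the high dose, so hearts at 0 also occurred without thioacetamide.

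For the most abundant heart transcripts, no difference between the groups passed a test. ENSRNOT00000050156, the highest of all, was at 65700 ± 8020 TPM with vehicle and 61000 ± 5620 TPM after the high dose (SD, n = 5 each). Of the 5 most abundant, which also include ENSRNOT00000046201, ENSRNOT00000049683, ENSRNOT00000046108, and ENSRNOT00000043693, the smallest p was 0.198 (2-sided exact permutation test, adjusted p = 0.317 over the 5). All 5 had a lower mean after the high dose, with ranges that overlapped.

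Whether the heart kept the same differences at 24 h was examined in separate rats, with vehicle and high-dose libraries not used at 8 h. Those rats were injected in the late afternoon and had food until the morning of the next day, whereas the 8 h rats were injected in the morning without food. Both sets had no food for the last 8 h and were sampled at the same hour of the day. The time after the dose still cannot be told apart from the hour of injection and the earlier feeding. At 24 h, ENSRNOT00000003770 was at 12.7 ± 1.09 CPM with vehicle and 25.1 ± 7.10 CPM after the high dose (SD, n = 5 each), a log2 fold change of 0.99 (adjusted p = 0.00714, edgeR). ENSRNOT00000028066 was at 8.13 ± 0.786 CPM and 21.4 ± 6.79 CPM (SD, n = 5 each), a log2 fold change of 1.40 (adjusted p = 0.00213, edgeR). Both were called again. ENSRNOT00000070912 was at 14 ± 5.07 CPM and 29.6 ± 5.04 CPM (SD, n = 5 each), a log2 fold change of 1.09 (adjusted p = 0.0155, edgeR), which missed the limit. The change of the effect from 8 to 24 h was 0.06, -0.28, and -0.51 on the log2 scale, in the order in which they are named here, and none passed the interaction test (adjusted p = 0.97, 0.846, and 0.663, edgeR). Low-dose hearts at 24 h had log2 fold changes of 0.45, 0.75, and 0.53, none of them called.

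Of the 12 transcripts named without a call, all had the same direction at 24 h, and 10 of them at an unadjusted p under 0.05, namely 5 higher and 5 lower. Over all 17203 transcripts tested at both times, 61.6% had the same direction, 16.7% had it at an unadjusted p under 0.05 at 24 h, and 0.924% had it and were called at 24 h. ENSRNOT00000025913 and ENSRNOT00000091275 were called at 24 h, with log2 fold changes of 0.99 (adjusted p = 0.000685, edgeR) and 1.68 (adjusted p = 0.000336, edgeR). ENSRNOT00000074583 was 0.22 higher on the log2 scale (adjusted p = 0.508, edgeR) and ENSRNOT00000003472 was 0.09 lower (log2 fold change -0.09, adjusted p = 0.399, edgeR), so these had no clear difference at the later time.

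Read the other way, the 162 transcripts called in the heart at 24 h (0.922% of 17574 tested, 119 higher and 43 lower) already leaned the same way at 8 h. Of the 161 tested at both times, 159 (98.8%) had the same direction at 8 h, where 61.6% of all 17203 transcripts tested at both times did. At an unadjusted p under 0.05, 65.2% of them had the same direction and none the opposite, where 8.16% of all transcripts had the same direction. Of the 161, 29 passed the fold limit at 8 h in the same direction, and 2 were called. Over all transcripts tested at 8 h, 2.69% passed the fold limit in either direction and 0.0171% were called. The 118 that were higher at 24 h had a median log2 fold change of 0.58 at 8 h, and the 43 that were lower had a median of -0.43. Over all 17203 transcripts, the fold changes at both times had a Pearson r of 0.313 and a Spearman rho of 0.317, given as a description, since transcripts of a library share its depth and its RNA.

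**Figure D3:**
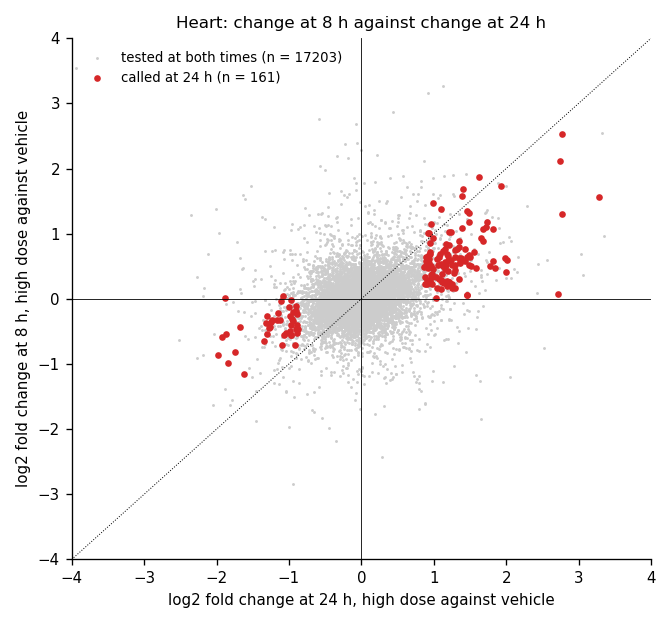
Log2 fold change of the high dose against vehicle in the heart at 8 h (vertical axis) against that at 24 h (horizontal axis) for the 17203 transcripts tested at both times (grey) and the 161 of them called at 24 h (red), with the dotted line at equal change. The red points lie in the upper right and lower left, mostly nearer to 0 at 8 h than at 24 h, and 4 points, 1 of them red, lie outside the axes, which end at 4 in either direction.

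The change was smaller at 8 h than at 24 h for 153 of the 161, with a median ratio of 0.456. These transcripts were chosen at 24 h, which favours larger values there. The interaction test of time used the same 24 h libraries, so the choice also favours small p values in that test. None of the 161 passed the interaction test of time at an adjusted p of 0.01 in edgeR, and 104 had an unadjusted p under 0.05. Over all transcripts, 1 of 18543 (0.00539%) passed it, and 1553 had an unadjusted p under 0.05. This was ENSRNOT00000073559, at 10.2 ± 0.928 CPM with vehicle and 8.78 ± 0.702 CPM after the high dose at 8 h, and at 10.1 ± 0.414 CPM and 15.1 ± 1.03 CPM at 24 h (SD, n = 5 each). The log2 fold change was -0.22 at 8 h and 0.59 at 24 h, a difference of 0.81 (adjusted p = 0.00574, edgeR). This call was not stable: 17 of the 20 fits with 1 library left out made no call, and neither did the fits without the filter on low counts or with all 30 heart libraries.

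Library by library, the transcripts called at 24 h were summarized at 8 h as the median over the list of the log2 deviation from the vehicle mean, counted in the direction of 24 h. The vehicle hearts were at -0.04, -0.13, 0.29, 0.02, and -0.16, and the high-dose hearts at 0.29, 0.59, 0.62, 0.62, and 0.38. A single vehicle heart, MS-76, was thus level with the lowest high-dose heart, MS-68, and the other 4 vehicle hearts were well below all 5 high-dose hearts. The low-dose hearts, which share the vehicle mean, were at 0.07 to 0.29.

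**Figure D4:**
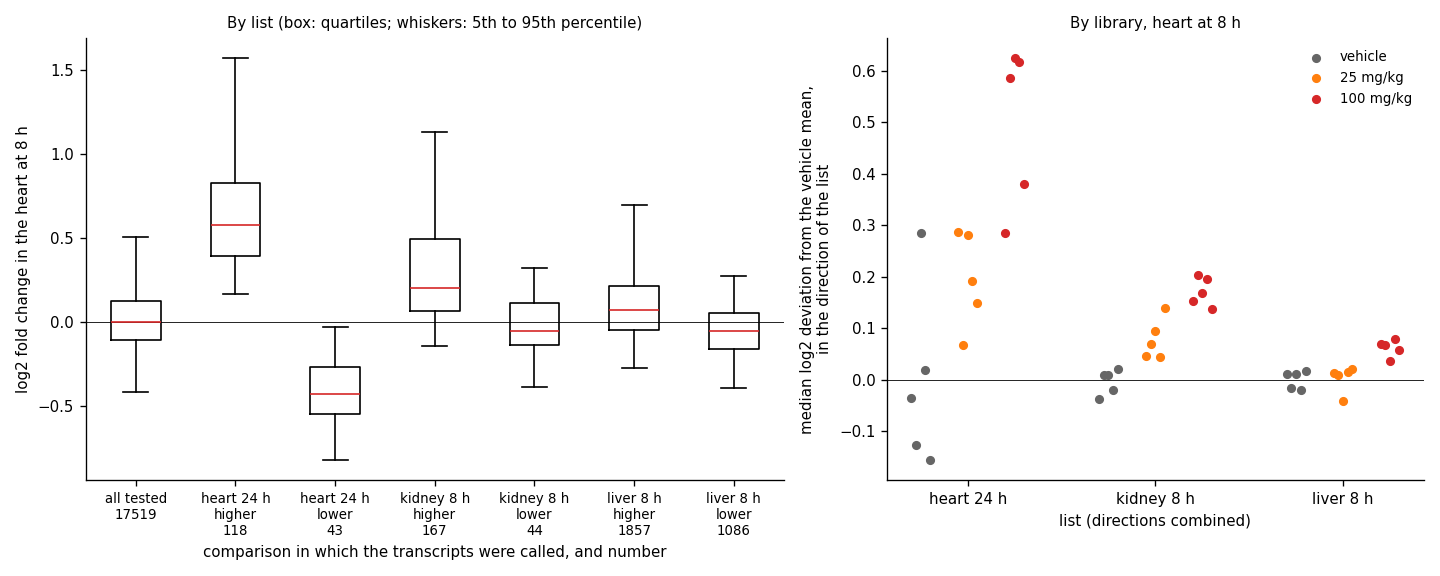
Left, log2 fold change in the heart at 8 h (vertical axis) of all tested transcripts and of those called higher or lower in the heart at 24 h, the kidney at 8 h, or the liver at 8 h at the high dose, with the median, quartiles, and 5th to 95th percentile. Right, for each heart library at 8 h (points, coloured by dose), the median log2 deviation of each list from the vehicle mean in the direction of the list. The 5 high-dose libraries lie above the 5 vehicle libraries for the kidney and liver lists, and MS-76 reaches the lowest high-dose library for the heart list.

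The same was asked of the transcripts called at 8 h in the kidney and liver of high-dose rats. Of the 278 called in the kidney (1.49% of 18597 tested), 211 were tested in the heart. There, 164 (77.7%) had the same direction, where 55.3% of all 16120 transcripts tested in both organs did, and 66 (31.3%) had it at an unadjusted p under 0.05, where 6.49% of all did. The 167 that were higher in the kidney had a median log2 fold change of 0.20 in the heart, where 135 were higher, and the 44 that were lower had a median of -0.06, where 29 were lower. In the library summary of the kidney list, the vehicle hearts were at -0.04 to 0.02, the low-dose hearts at 0.04 to 0.14, and the high-dose hearts at 0.14 to 0.20, without overlap of the high dose and vehicle. Taken alone, the 44 lower transcripts gave -0.08 to 0.07 with vehicle and -0.03 to 0.12 after the high dose, which overlap.

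The liver list was much longer, 3323 transcripts (20.2% of 16468 tested), and moved less in the heart. Of the 2943 tested there, 1944 (66.1%) had the same direction, where 58.2% of all 14868 tested in both organs did. An unadjusted p under 0.05 with the same direction was found for 338 (11.5%), where 6.58% of all had it. With the opposite direction it was found for 91 of the 2943. Of all 17519 transcripts tested in the heart, 9.69% had an unadjusted p under 0.05 in either direction. The median log2 fold change in the direction of the liver was 0.06. For the list of both organs, chosen after these values were seen, 122 of 152 transcripts (80.3%) had the same direction in the heart, with a median of 0.20. This list is a part of the kidney list, and no share over all transcripts is given for it. Of its 136 higher transcripts, 111 were higher in the heart, and of its 16 lower ones, 11 were lower. In the library summary, the lower ones gave -0.12 to 0.07 with vehicle and -0.01 to 0.32 after the high dose, which overlap. By the study's methods, liver, kidney, and heart were taken from each rat, so these lists and the heart libraries come from the same set of animals. The labels do not say which libraries share a rat.

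The 3 called heart transcripts were also called higher in the liver at 8 h. Of all transcripts tested in both organs, 13.1% were called in the liver and had the same direction in the heart. ENSRNOT00000070912 went from 0.444 ± 0.164 TPM with vehicle to 13.7 ± 5.72 TPM after the high dose in the liver (SD, n = 5 each), and from 3.42 ± 0.679 TPM to 10.6 ± 2.12 TPM in the heart (SD, n = 5 each). The liver thus began below the heart and ended at a like level. ENSRNOT00000028066 began higher in the liver, at 14.5 ± 5.19 TPM against 3.06 ± 0.855 TPM in the heart, and reached 113 ± 38 TPM and 9.94 ± 1.83 TPM (SD, n = 5 each). ENSRNOT00000003770 was at 0.305 ± 0.111 TPM and 2.27 ± 0.909 TPM in the liver and at 4.20 ± 0.124 TPM and 8.13 ± 0.568 TPM in the heart (SD, n = 5 each).

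In an interaction test added after the data were seen, which treats the 20 libraries as unrelated, the log2 fold change in the liver exceeded that in the heart by 3.22 for ENSRNOT00000070912 (adjusted p = 3.46e-05, edgeR), by 1.80 for ENSRNOT00000003770 (adjusted p = 3.04e-05, edgeR), and by 1.11 for ENSRNOT00000028066 (adjusted p = 0.0071, edgeR). Of all 19517 transcripts tested, 3923 (20.1%) passed this test. Both organs came from the same rats, which the test does not account for. In the kidney, ENSRNOT00000028066 was called with a log2 fold change of 1.15 (adjusted p = 0.000328, edgeR) and ENSRNOT00000003770 was not, at 0.64 (adjusted p = 0.0819, edgeR). ENSRNOT00000070912 had no clear difference in the kidney, with a log2 fold change of -0.24 (adjusted p = 0.709, edgeR), and the kidney effect was 1.84 below that of the heart (log2 difference -1.84, adjusted p = 0.0162, edgeR), which missed the limit of 0.01.

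**Figure D5:**
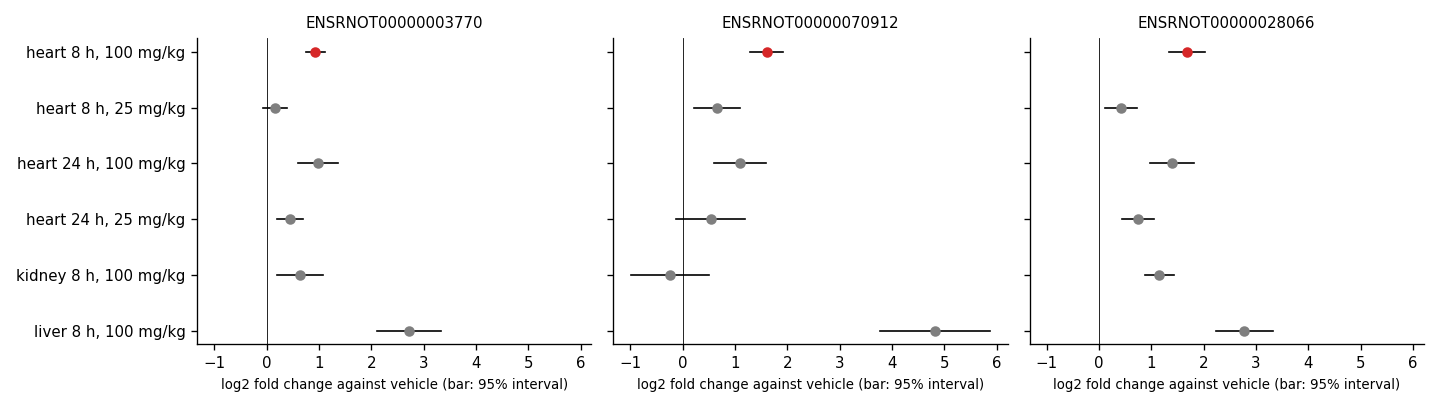
Log2 fold change against vehicle in the same organ at the same time (horizontal axis) for the 3 transcripts called in the heart at 8 h, with 95% intervals, in the heart at both doses and times and in the kidney and liver at 8 h after 100 mg/kg. In each panel the liver value is farthest to the right, and the heart values at 25 mg/kg are nearer to 0 than those at 100 mg/kg.

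Among the 6 higher transcripts that missed a call in the heart, the liver called 4 in the same direction and the kidney 3. The corresponding shares over all transcripts tested in both organs were 13.1% for the liver and 1.02% for the kidney. ENSRNOT00000067780 was called in both, with a log2 fold change of 2.10 in the kidney and 3.15 in the liver, against 0.97 in the heart. ENSRNOT00000074583 had 4.42 in the liver and 0.69 in the heart. ENSRNOT00000091275 was the exception, lower in the liver with a log2 fold change of -1.02 (adjusted p = 0.000208, edgeR) and at 1.07 in the heart. Of the 6 lower transcripts, none was called lower in either organ, and ENSRNOT00000042562 was called higher in the liver (log2 fold change 0.99, adjusted p = 0.00197, edgeR). All 5 of those tested in the kidney had the heart's direction, as did 2 of the 4 tested in the liver.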

How the data were processed

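The authors pseudo-aligned 75-base read pairs from stranded poly-A libraries with Kallisto (version 0.42.2 and build Rnor_6.0 in the submitters' processing notes) and deposited for each of 65166 targets an estimated count, which is not normalized, and a TPM value, which is scaled by effective length and library. The 25095 targets that are genomic intervals were left out of the tests.

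Groups were taken from the sample labels. The labels number no replicates and name no rat, so replicates are numbered in accession order and nothing pairs libraries across groups. Within an organ, each library is taken as 1 rat, after the study's methods. Across organs the same rats were sampled again, and the interactions of dose with organ do not account for this.

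Whole numbers were made of the estimated counts by rounding and compared in R 4.3.3 with edgeR 4.0.16 (default filter on low counts, TMM scaling, quasi-likelihood test, Benjamini-Hochberg adjustment over all tested transcripts), 5 libraries against 5. A call needs an adjusted p no higher than 0.01 together with a natural-log change that reached 0.60 either way (log2 0.866). CPM values were scaled over all 30 heart libraries. The standard error was derived from the fitted coefficient and its F statistic. The interactions of dose with time or organ used 20 libraries each. The test was tested on simulated data. Single measures were compared with exact permutation tests. Lists called elsewhere were described by counts and medians only, with a pseudocount of 0.5 CPM for the values by library.

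The rule for naming took every called transcript, the 6 higher and 6 lower with the smallest p among those not called, at a mean of at least 2 CPM and without overlap between the groups, and the 5 most abundant by TPM. The members, lists, and tests were chosen with earlier results of these data known. Lists of genes by name and sums per gene were not analysed here, since no table used pairs transcripts with genes.

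Alternatives were DESeq2 1.42.0, other scalings and filters, fits over 15 or 30 heart libraries, limma 3.58.1 on TPM values with a pseudocount of 1 or 0.1, other limits, intervals in the fit, and leaving out each library. The interval share as a covariate and the fit without MS-77 and MS-89 were added after the data were seen. Tables were made in Python 3.11.15 with pandas 2.3.3 and scipy 1.17.1, and plots with matplotlib 3.10.9.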

Additional observations from a re-analysis of the deposited data

Results flagged for a closer look

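Sets of 5 values, each of 1 measure in 1 group of libraries, were examined for a sample far from the rest. Among 53 such sets, 3 had one, where chance gives about 1 in 20. In the vehicle hearts at 8 h, MS-89 had 20.3% of its counts on genomic intervals, far above the other 4. In the high-dose hearts, MS-77 had 21.7%, far above the other 4. MS-89 also had the lowest level of the abundant transcript ENSRNOT00000043693, at 34943 TPM, far below the other vehicle hearts. The calls without both libraries are given above.

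The high-dose effect differed between the liver and the heart at 8 h for all 3 called heart transcripts, each by a test of the difference itself. That test treats the libraries as unrelated, although both organs came from the same rats. The liver exceeded the heart on the log2 scale by 1.80 for ENSRNOT00000003770 (adjusted p = 3.04e-05), by 3.22 for ENSRNOT00000070912 (adjusted p = 3.46e-05), and by 1.11 for ENSRNOT00000028066 (adjusted p = 0.0071), all from edgeR. The effect in the heart differed between 8 and 24 h for ENSRNOT00000073559, by 0.81 on the log2 scale (adjusted p = 0.00574, edgeR), in the fit of all 20 libraries. No call was made in 17 of the 20 fits that left out 1 library.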

How the results depend on the processing

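The count of called transcripts changed with the method. Against 3 (all higher), DESeq2 called 50 (39 higher, 11 lower), one fit of the 15 heart libraries at 8 h called 7, and one fit of all 30 heart libraries called 14. limma on log2(TPM + 0.1) called 1 and limma on log2(TPM + 1) called 0 (1219 at an unadjusted p under 0.05). Without the fold limit the count was 5, and at an adjusted p of 0.05 it was 10 (7 higher, 3 lower). Without MS-77 and MS-89 it was 0. Leaving out 1 library gave 1 to 6, with 1 without vehicle replicate 3 (MS-76) or 4 (MS-88) and 6 without high-dose replicate 1 (MS-68). The interaction of time called 42 with DESeq2, 0 without the filter on low counts (2252 at an unadjusted p under 0.05), 0 in the fit of 30 libraries (1486 at an unadjusted p under 0.05), and 0 to 1 with 1 library left out, with no call in 17 of the 20 fits. Called by DESeq2, the list of the heart at 24 h had 273 of 286 transcripts in the same direction, and that of the kidney 316 of 467 with a median log2 fold change of 0.13. In the edgeR fits, 61.6% of all transcripts tested at both times and 55.3% of all tested in heart and kidney had the same direction. The cause of these shifts was not tested. Leaving out 1 library moved the difference of the high dose minus vehicle from -1330000 to 2120000 counts in the totals, from -1.33 to 4.10 percentage points in the interval share, from -47.1 to 438 in the number of transcripts above 0, from -2.67 to -1.45 percentage points in the share of the 10 most abundant transcripts, and from -7.18 to 4.32 TPM in the sum of 20 liver transcripts. Of the values of the 15 named transcripts under the alternatives, 327 kept their side of the limits, 18 passed them only under the alternative, 15 no longer passed them, and 0 changed direction. The groups did not overlap at 8 h for any of the 15, and the alternatives reused the same libraries. A change of direction was therefore hardly possible, and its absence says little. The settings without the fold limit and at an adjusted p of 0.05 only loosened the limits on the main fit. Their values could not change, and some of the 18 passed only those looser limits. The share of transcripts with an interval within 2-fold was 48.9% without the filter. With limma on log2(TPM + 1) it was 90.8% of 15362 transcripts with a mean of at least 1 TPM. That is another set, and the added 1 makes the fold changes of low transcripts smaller, so these shares are not like measures. Intervals were wider where counts were few, since 92.7% of transcripts at 2 CPM or more and 82.2% of all tested had an interval within 2-fold. No paired analysis was possible because the labels give no replicate numbers and name no rat, and the library numbers in the titles are not said to mark one.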
